A study of Mus musculus with 16 samples.

Results

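The Notch receptors and their ligands were followed through the division of the mouse cloaca into hindgut and urethra. The set holds 10 genes, taken by name from the 23234 features of each deposited table: the 4 receptors Notch1 to Notch4, the 5 ligands Jag1, Jag2, Dll1, Dll3 and Dll4, and Nrarp. All 10 were found, each as a single feature. Tissue was cut by laser from frozen sections of wild-type male CD1 embryos, an outbred stock, at 10.5 and 13.5 days post coitum (E10.5 and E13.5). At E10.5 the dorsal and ventral cloaca were captured, and at E13.5 the hindgut epithelium and rectum epithelium on the dorsal side and the epithelium of the pelvic urethra on the ventral side. Each of 8 embryos, 4 per age, gave both regions and none was pooled, so that 16 libraries form 4 groups of 4. The deposited values are FPKM (fragments scaled to transcript length and to library size). Levels of different genes are set side by side on this scale. The RNA was amplified, and whether this affected genes unequally could not be checked. There is only 1 value per gene, region and age. The spread between embryos and the depth of the libraries are therefore unknown, no error or p-value can be given, and none of the differences could be checked against replicates. The study was set up towards an expression atlas of the developing genital tubercle and urethra.

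Notch signalling passes between touching cells. A Jagged or Delta-like ligand on the surface of one cell binds a Notch receptor on its neighbour, the receptor is cut within the membrane, and the freed intracellular part enters the nucleus, where it joins the DNA-binding protein Rbpj and switches on target genes. Nrarp is such a target and encodes a small ankyrin-repeat protein that limits the pathway in turn. In the intestine Delta-like ligands on secretory cells hold neighbouring cells in the absorptive lineage, in stratified epithelia Notch1 and the Jagged ligands act in the step from basal to upper layers, and in blood vessels Dll4 and Notch4 mark endothelium while Notch3 marks mural cells.

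Epithelial markers had the highest sum of the marker lists in all 4 groups. Summed over 7 epithelial markers, the level was between 1544 and 2757 FPKM, with Cldn6, Krt19 and Epcam the highest over the groups together. The 8 mesenchymal markers summed to 103 to 116 FPKM, led by Vim and Prrx1. From dorsal cloaca to urethra Vim was at 27.4, 14.8, 58.1 and 73.0 FPKM and Prrx1 at 44.7, 65.1, 2.08 and 8.29 FPKM. The share of mesenchymal cells was not measured. Hindgut markers summed to 356 FPKM in the E13.5 hindgut and 2.31 FPKM in the urethra, although Cdx2, a defining hindgut gene, was listed at 0 in the hindgut. Lgals4, whose feature carries more than a single gene name, made up 268 FPKM of the hindgut sum. At E10.5 the list summed to 21.6 FPKM dorsally and 6.79 FPKM ventrally. There 2 of its genes counted as higher dorsally, and Vil1 counted as higher ventrally, at 5.99 against 1.83 FPKM. Basal and stratified epithelium markers, with Krt15, Perp and Krt5 the highest over the 4 groups together, summed to 13.4 FPKM in the dorsal cloaca, 189 FPKM in the ventral cloaca, 812 FPKM in the hindgut and 1279 FPKM in the urethra. The urothelial list of 5 uroplakins summed to 94.8, 42.3, 104 and 115 FPKM in the same order. In the dorsal cloaca 94.3 FPKM of this was Upk1a, while Upk1b (0.029 and 7.17 FPKM) and Upk2 (0.47 and 6.10 FPKM) counted as higher in the ventral cloaca. Because these are bulk samples, fewer cells of a type and less RNA per cell cannot be told apart.

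**Figure D1:**
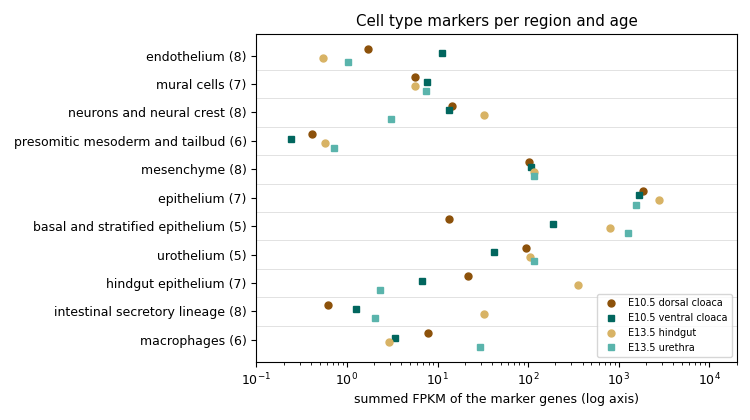
Summed FPKM (log axis) of 11 lists of cell type markers, with the number of genes in brackets and 1 point per region and age. Epithelial markers lie furthest to the right in all 4 groups, and endothelial markers sum to at most 11.1 FPKM.

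The genes lie on 5 chromosomes of the build mm10 (GRCm38), with starts counted from 1 and spans as in the deposited tables. Chromosome 2 carries 4 of them, Nrarp (XLOC_010685, 25180758 to 25183332), Notch1 (XLOC_011691, 26457902 to 26503822), Dll4 (XLOC_011163, 119321199 to 119335666) and Jag1 (XLOC_012303, 137081451 to 137116520). Notch2 (XLOC_012899) spans 98013538 to 98150367 of chromosome 3, Dll3 (XLOC_018890) 28293555 to 28301785 of chromosome 7 and Jag2 (XLOC_004853) 112908590 to 112929495 of chromosome 12. On chromosome 17 lie Dll1 (XLOC_008798, 15367354 to 15375823), Notch3 (XLOC_008954, 32120893 to 32166852) and Notch4 (XLOC_008456, 34564295 to 34588543). All are annotated protein-coding genes in GENCODE M21. The feature of Dll4 shares its span with the opposite-strand transcript Gm14207, so its values are uncertain. No source used here says whether strand was used in counting, and without strand reads of overlapping opposite-strand genes cannot be told apart. Nrarp is a single exon of 2582 bases, of which 2051 are overlapped by exons of the antisense transcript Gm38287. Such overlap covers 867 of 4219 exon bases of Dll1 with A930024N18Rik, 1068 of 14232 of Notch1 with 0610009E02Rik and 488 of 8089 of Notch3 with Gm17276.

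The sequences shown are the 250 bases before the RefSeq start (GRCm38.p6) of the 2 members that stood higher in the ventral cloaca, Notch1 and Jag1, and of the 2 that stood higher in the urethra, Jag2 and Nrarp. They are written 5′ to 3′ on the strand of the gene, with capitals for the letters CACGTG, an E-box, and GGGCGG, a GC box, on either strand. Notch1 is chr2:26503823-26504072, Jag1 chr2:137116521-137116770 and Jag2 chr12:112929496-112929745, all on the minus strand, and Nrarp is chr2:25180508-25180757 on the plus strand.
Notch1: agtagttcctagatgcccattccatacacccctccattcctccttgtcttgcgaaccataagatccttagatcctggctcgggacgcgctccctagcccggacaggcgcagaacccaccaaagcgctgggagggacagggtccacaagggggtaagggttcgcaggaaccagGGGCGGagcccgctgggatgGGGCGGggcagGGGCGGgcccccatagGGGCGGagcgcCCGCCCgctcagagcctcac
Jag1: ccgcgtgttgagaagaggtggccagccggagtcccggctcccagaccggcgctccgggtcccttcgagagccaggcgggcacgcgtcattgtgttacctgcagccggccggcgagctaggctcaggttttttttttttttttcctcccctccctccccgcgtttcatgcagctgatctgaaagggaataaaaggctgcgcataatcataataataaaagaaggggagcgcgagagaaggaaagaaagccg
Jag2: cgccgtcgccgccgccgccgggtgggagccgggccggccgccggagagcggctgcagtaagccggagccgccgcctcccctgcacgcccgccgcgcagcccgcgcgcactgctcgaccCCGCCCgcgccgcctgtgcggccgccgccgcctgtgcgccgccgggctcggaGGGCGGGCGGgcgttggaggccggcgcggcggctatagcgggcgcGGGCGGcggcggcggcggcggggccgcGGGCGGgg
Nrarp: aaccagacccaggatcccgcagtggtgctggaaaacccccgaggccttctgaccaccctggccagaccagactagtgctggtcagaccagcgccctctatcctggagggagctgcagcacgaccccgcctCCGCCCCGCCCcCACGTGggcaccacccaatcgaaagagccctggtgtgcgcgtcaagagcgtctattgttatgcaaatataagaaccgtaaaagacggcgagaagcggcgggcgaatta
The RBPJ core TGGGAA was searched on both strands in windows from 250 bases before to 50 after each start. None of the 11 windows of the 10 members held it (Dll1 has 2 starts), while 25.6% of 32851 RefSeq windows did. The other motifs were chosen after the windows were seen. CACGTG was found in the window of Nrarp alone among the members, 108 bases before its start, and in 7.2% of all windows. GGGCGG was found 5 times each for Notch1 and Jag2, in 2 overlapping copies for Nrarp and not in the window of Jag1, and in 35.7% of all windows. A pair of copies also overlaps in the Jag2 window. The share of G and C was 86.0% in the Jag2 window, 68.3% for Notch1, 60.0% for Nrarp and 55.7% for Jag1, against a median of 52.7% over all windows. These matches describe letters and not binding.

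A gene is counted below as higher in a region when log2(FPKM + 1) differs by at least 1 between the regions of an age and it reaches 1 FPKM in either. This is a rule of size and no test, and the added 1 FPKM understates the change of low genes. At E10.5, 6 of the 10 members reached the minimum, of which 2 counted as higher in the ventral cloaca, where 10.6% of all 12379 features above the minimum did. None counted as higher in the dorsal cloaca, where 9.62% of all features did. At E13.5, 8 members reached the minimum. Of these 2 counted as higher in the urethra and 1 in the hindgut, where 4.16% and 4.59% of all 12369 features did. The median difference, ventral minus dorsal on the log2(FPKM + 1) scale, was 0.45 over the members above the minimum at E10.5 and 0.13 over all 10, against 0.04 over all features above it. At E13.5 it was -0.17 and -0.30, against 0.01, and it was 0.42 over the 6 members that reach 5 FPKM. A member can pass the minimum through its higher region alone, so these counts describe the set and support nothing beyond it. With 5 FPKM added in place of 1, Nrarp alone stayed past the threshold, while Notch1 and Jag1 at E10.5 came to 0.76 and 0.79 and Jag2 and Dll4 at E13.5 to 0.91 and -0.60.

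**Figure D2:**
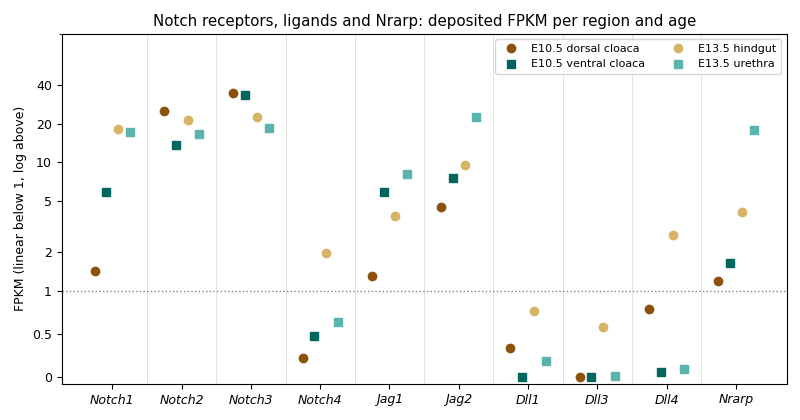
Deposited FPKM of the 10 genes in each region and age, on an axis that is linear below 1 FPKM and logarithmic above. Notch2 and Notch3 lie between 13.7 and 34.6 FPKM in all 4 groups, while Notch1 lies at 1.44 FPKM in the dorsal cloaca and at 17.3 and 18.4 FPKM at E13.5.

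**Figure D3:**
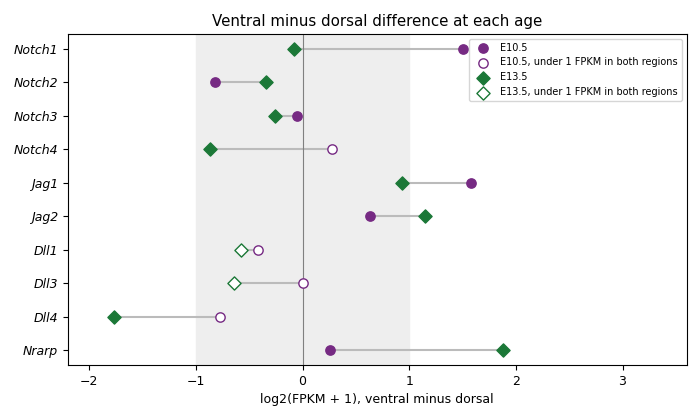
Difference of log2(FPKM + 1), ventral minus dorsal, for each gene at E10.5 and E13.5, with the zone between -1 and 1 shaded and open symbols for genes under 1 FPKM in both regions. Notch1 and Jag1 lie right of the zone at E10.5, Jag2 and Nrarp right of it at E13.5, and Dll4 left of it at E13.5.

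Among the receptors, Notch3 and Notch2 were the abundant ones in the early cloaca, and Notch1 alone counted as higher ventrally there. Notch1 encodes the receptor best known from stratified epithelium and intestine. Its level was 1.44 FPKM in the dorsal and 5.91 FPKM in the ventral cloaca, a 4.09-fold higher FPKM ventrally (difference of log2(FPKM + 1) of 1.50). At E13.5 the hindgut and urethra stood at 18.4 and 17.3 FPKM of Notch1, 1.06-fold apart. The regional difference seen for Notch1 at E10.5 had no counterpart of that size at E13.5, and a test of the change between ages was not possible. Beside it, all 5 basal and stratified epithelium markers counted as higher in the ventral cloaca, and their part in the Notch1 difference was not tested.

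Notch3 had the highest level of any member in 3 of the 4 groups. It stood at 34.6 FPKM in the dorsal cloaca, 33.5 FPKM in the ventral cloaca, 22.6 FPKM in the hindgut and 18.7 FPKM in the urethra, and the regions were 1.03-fold and 1.21-fold apart at the 2 ages. In the dorsal cloaca 91.4% of all features had a lower FPKM. The mural cell list, whose cells are known for Notch3, summed to 5.61, 7.67, 5.71 and 7.48 FPKM over 7 genes in the same order, with Pdgfrb at 3.49, 1.56, 2.66 and 2.09 FPKM. Tagln counted as higher ventrally at both ages and Rgs5 at E13.5. Kcnj8 was listed at 0 in both parts of the cloaca. The part of mural cells in the Notch3 level was not tested.

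Notch2, a receptor of broad expression, was an abundant receptor with a dorsal lean in the cloaca. Its level was 25.0 FPKM in the dorsal and 13.7 FPKM in the ventral cloaca, 1.83-fold apart, with a difference of -0.82 on the log2(FPKM + 1) scale that stays inside the threshold. At E13.5 it stood at 21.3 FPKM in the hindgut and 16.6 FPKM in the urethra, 1.28-fold apart. Notch4 was the scarcest receptor, at 0.22 FPKM in the dorsal cloaca, 0.48 FPKM in the ventral cloaca, 1.99 FPKM in the hindgut and 0.64 FPKM in the urethra. The hindgut was 3.10-fold above the urethra in FPKM of Notch4, a difference of -0.87 on the log2(FPKM + 1) scale.

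Each Jagged ligand counted as higher on the ventral side at 1 of the 2 ages, Jag1 at E10.5 and Jag2 at E13.5. Jag1, a ligand of epithelia and vessels, was at 1.32 FPKM in the dorsal and 5.94 FPKM in the ventral cloaca, a 4.49-fold higher FPKM ventrally and a difference of 1.58 on the log2(FPKM + 1) scale. At E13.5 the level of Jag1 was 3.82 FPKM in the hindgut and 8.16 FPKM in the urethra, 2.14-fold apart, and its difference of 0.93 on the log2(FPKM + 1) scale lay just inside the threshold. Jag2, a ligand known from limb and stratified epithelium, showed the reverse order of sizes. Its level was 4.54 and 7.59 FPKM in the dorsal and ventral cloaca, 1.67-fold apart, and 9.64 and 22.6 FPKM in hindgut and urethra, 2.34-fold apart with a difference of 1.15. In the urethra Jag2 had the highest FPKM of the 10 genes. Basal and stratified epithelium markers were higher on the ventral side too, 5 of 5 at E10.5 and 2 of 5 at E13.5, and their part in the Jagged differences was not tested.

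Among the Delta-like ligands, Dll4 at E13.5 was the 1 value that passed the threshold, with the higher level in the hindgut. The other Delta-like values were under 1 FPKM in both regions of their age and were not counted. Dll4, the ligand of intestinal secretory cells and of sprouting vessels, was at 0.79 FPKM in the dorsal and 0.053 FPKM in the ventral cloaca, both under the minimum. In the hindgut it was at 2.73 FPKM and in the urethra at 0.093 FPKM, a 29.3-fold ratio over a very low urethral value and a difference of -1.77 on the log2(FPKM + 1) scale. This count rests on a feature that shares its span with Gm14207, and it is lost without shared spans, with a minimum of 5 FPKM, and at -0.60 with 5 FPKM added. Dll1, a ligand of progenitor and secretory cells, was at 0.34 FPKM in the dorsal cloaca and listed at 0 in the ventral cloaca, and at 0.77 FPKM in the hindgut and 0.18 FPKM in the urethra. Dll3, a divergent family member known from the somites that acts inside its own cell, was listed at 0 in both parts of the cloaca. At E13.5 it stood at 0.58 FPKM in the hindgut and 0.0086 FPKM in the urethra. Dll1 and Dll3 reached 1 FPKM in no group, so their ratios rest on very low values.

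Markers of cells known for Delta-like ligands or Notch4 were set beside these levels. Of the 8 endothelial markers none reached 1 FPKM at E13.5. They summed to 0.54 FPKM in the hindgut and 1.03 FPKM in the urethra. Esam stood at 0.24 and 0.33 FPKM in hindgut and urethra and Flt1 at 0.091 and 0.49 FPKM. Pecam1 was at 0.099 and 0.071 FPKM and Cdh5 at 0.031 and 0.073 FPKM, with Cldn5 and Emcn listed at 0 in both. Dll4 and Notch4 lay above the endothelial sum in the hindgut and below it in the urethra. At E10.5 the endothelial list summed to 1.69 FPKM dorsally and 11.1 FPKM ventrally, of which Esam made up 8.63 FPKM, and Dll4 and Notch4 lay below the sum in both parts of the cloaca. The intestinal secretory list was higher in the hindgut together with Dll4. Of its 8 genes 5 counted as higher in the hindgut and none in the urethra, and its sum was 32.7 against 2.02 FPKM, led by Tff3 at 19.2, Atoh1 at 5.34 and Spink4 at 3.00 FPKM in the hindgut. In the cloaca the same list summed to 0.62 FPKM dorsally and 1.26 FPKM ventrally, with 5 genes listed at 0 in each part. The neuron and neural crest list summed to 32.6 FPKM in the hindgut and 3.07 FPKM in the urethra, but 30.5 FPKM of this was Ednrb, and Sox10 stood at 0.076 FPKM in the hindgut and was listed at 0 in the urethra. In the cloaca that list summed to 14.4 FPKM dorsally and 13.3 FPKM ventrally. No presomitic mesoderm marker reached 1 FPKM in any group, and the list summed to 0.24 to 0.71 FPKM. The part of endothelial, secretory and Ednrb-bearing cells in the Delta-like and Notch4 levels was not tested.

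Nrarp, the feedback target, had the widest range of the 10 genes on the log2(FPKM + 1) scale, taken over both regions and both ages. It stood at 1.21 FPKM in the dorsal and 1.65 FPKM in the ventral cloaca, 1.36-fold apart. At E13.5 it was at 4.13 FPKM in the hindgut and 17.9 FPKM in the urethra, a 4.34-fold higher FPKM in the urethra and a difference of 1.88 on the log2(FPKM + 1) scale. Other target genes did not share 1 pattern. Hey1 counted as higher ventrally at both ages, at 1.09 and 3.95 FPKM in the cloaca and 4.78 and 13.2 FPKM in hindgut and urethra. Hey2 did so at E10.5, at 0.98 and 5.71 FPKM, and was under 1 FPKM in both regions at E13.5. Hes1, the target with the highest level, stood at 14.2 and 8.72 FPKM in the dorsal and ventral cloaca and at 82.3 and 101 FPKM in hindgut and urethra, inside the threshold at both ages. Macrophage markers, 4 of 6 of them, counted as higher in the urethra and summed to 29.2 FPKM there against 2.92 FPKM in the hindgut. C1qc was at 10.7 FPKM in the urethra and 0.026 FPKM in the hindgut, and C1qb at 7.60 FPKM and 0. Cd68, inside the threshold, was at 5.80 and 2.89 FPKM. Ptprc of that list was at 0.060 FPKM in the urethra and listed at 0 in the hindgut. At E10.5 the macrophage list summed to 7.91 FPKM dorsally and 3.37 FPKM ventrally. Of the basal and stratified epithelium markers 2 of 5 also counted as higher in the urethra. So did 2 of the 4 uroplakins and 2 of the 3 mural cell markers above the minimum. None of the markers in these lists counted as higher in the hindgut. The part of these cells in the Nrarp difference was not tested.

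Read as a mixture, the receptors differed between groups in make-up more than in total, and the ligands in both. No source used here says that the ages were normalized together, so sums at different ages are only set side by side. Over all features, FPKM summed to 433416 in the dorsal and 424724 in the ventral cloaca, 708752 in the hindgut and 661939 in the urethra. The summed receptor level was 61.3 FPKM in the dorsal cloaca, 53.6 FPKM in the ventral cloaca, 64.2 FPKM in the hindgut and 53.2 FPKM in the urethra. Notch1 made up 2.4% of it in the dorsal cloaca, 11.0% in the ventral cloaca, 28.6% in the hindgut and 32.5% in the urethra. Notch3 made up 56.5% and 62.6% in the cloaca and 35.2% and 35.1% at E13.5. The summed ligand level was 7.00 FPKM in the dorsal cloaca, 13.6 FPKM in the ventral cloaca, 17.5 FPKM in the hindgut and 31.0 FPKM in the urethra. Set against the receptors, this was 0.11, 0.25, 0.27 and 0.58 FPKM of ligand per FPKM of receptor in that order. Jag1 and Jag2 supplied 99.6% of the ligand sum in the ventral cloaca and 99.1% in the urethra. They supplied 83.8% in the dorsal cloaca and 76.7% in the hindgut, where Dll4 supplied 11.3% and 15.6%. In the dorsal cloaca Dll4 and Dll1 stood under the minimum, at 0.79 and 0.34 FPKM. The Dll4 feature shares its span with Gm14207, so its shares are uncertain.

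**Figure D4:**
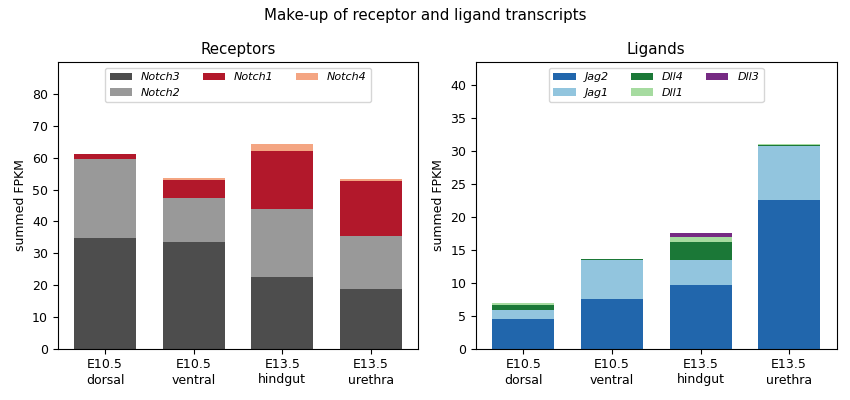
Summed FPKM of the 4 receptors and of the 5 ligands in each region and age, stacked by gene. The receptor bars reach 53.2 to 64.2 FPKM with a larger Notch1 part at E13.5, and the ligand bars reach from 7.00 FPKM in the dorsal cloaca to 31.0 FPKM in the urethra.

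The order of the members within each region was led by Notch3, Notch2 and Jag2 in both parts of the cloaca. The hindgut was led by Notch3, Notch2 and Notch1, and the urethra by Jag2, Notch3, Nrarp and Notch1. In the urethra the levels from Notch3 down to Notch2 spanned 18.7 to 16.6 FPKM, and whether such neighbours differ cannot be said without a spread. Dll1, Dll3 and Dll4 held the last places in the ventral cloaca and in the urethra.

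The 2 ages are in separate tables, and no source used here says that they were normalized together, so levels at different ages are only set side by side. Over all features above the minimum, the median of log2(FPKM + 1) at E13.5 minus E10.5 was 0.06 dorsally and 0.02 ventrally. On the dorsal side 5 members were at least 2-fold higher in the hindgut than in the dorsal cloaca on that scale, as were 17.6% of all features. These were Notch1, 12.7-fold higher in FPKM, Notch4, Jag1, Dll4 and Nrarp, the last 3.42-fold higher. After quantile normalization of the 2 ages the count was 3. On the ventral side 3 members were at least 2-fold higher in the urethra than in the ventral cloaca, as were 15.9% of all features. Nrarp was 10.9-fold higher in FPKM, Jag2 2.98-fold and Notch1 2.93-fold. No member was at least 2-fold higher at E10.5, as 10.8% of all features were dorsally and 10.4% ventrally. Notch3 came nearest, at 1.53-fold and 1.80-fold higher FPKM in the dorsal and ventral cloaca than in hindgut and urethra.

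A list of 44 other pathway genes had 40 above the minimum at each age. At E10.5, 6 counted as higher ventrally and 3 dorsally, where 10.6% and 9.62% of all features did. At E13.5, 2 counted as higher in the urethra and none in the hindgut, where 4.16% and 4.59% of all features did, so the list lies near the background. The median difference of log2(FPKM + 1) was 0.01 at both ages, against 0.04 and 0.01 over all features. None of the 9 genes of receptor cleavage and none of the 10 of the nuclear complex passed the threshold at either age, although Psen2 of the cleavage complex, at 1.74 and 4.49 FPKM in the dorsal and ventral cloaca, and the coactivator gene Maml2, at 4.14 and 9.21 FPKM in hindgut and urethra, lay at its edge. Both were named after their values were seen. With upper-quartile scaling the genes higher in the urethra numbered 3. Rbpj, the DNA-binding partner of the cut receptor, stood at 28.5 and 28.3 FPKM in the dorsal and ventral cloaca and at 12.98 and 12.79 FPKM in hindgut and urethra. Adam10, a protease gene of the receptor cleavage list, stood at 26.6, 20.8, 19.6 and 16.6 FPKM in the same order.

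**Figure D5:**
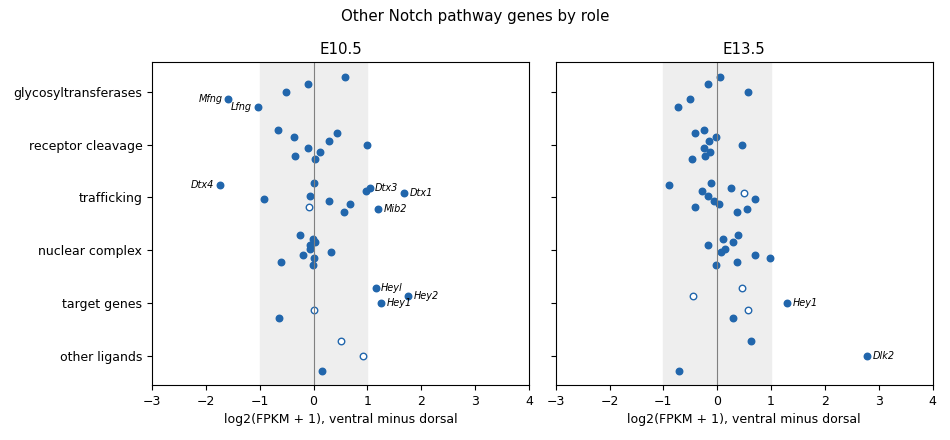
Difference of log2(FPKM + 1), ventral minus dorsal, of 44 other Notch pathway genes by role at E10.5 and E13.5, with open symbols for genes under 1 FPKM in both regions and names for those outside the shaded zone of -1 to 1. Points of receptor cleavage and the nuclear complex stay inside the zone, and 9 names lie outside it at E10.5 against 2 at E13.5.

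The pathway genes past the threshold belonged to the lists of receptor glycosylation, trafficking, target genes and other ligands. Lfng, a fringe enzyme whose sugar lets receptors favour Delta-like over Jagged ligands, was at 1.16 FPKM in the dorsal and 0.048 FPKM in the ventral cloaca, and at 27.6 and 16.2 FPKM in hindgut and urethra. Its relative Mfng, named after its values were seen, also counted as higher in the dorsal cloaca, at 3.09 against 0.36 FPKM. The third gene higher there was Dtx4, a deltex ubiquitin ligase gene, at 12.4 against 3.00 FPKM, with 7.13 and 3.36 FPKM in hindgut and urethra. Dtx3, another deltex gene, whose span is shared with other features, went the other way at 11.8 against 25.3 FPKM in the cloaca. Of the 12 trafficking genes 11 were above the minimum at each age. Of these, 3 counted as higher ventrally and 1 dorsally at E10.5, where 10.6% and 9.62% of all features did. None counted as higher in either region at E13.5. Mib1, the ubiquitin ligase that starts ligand uptake and so activates signalling, stood at 17.5, 26.4, 18.6 and 24.4 FPKM in the 4 groups, again on a shared span. Dlk2, a non-canonical ligand gene on a shared span, was at 7.85 FPKM in the urethra and 0.29 FPKM in the hindgut, and at 0.95 and 0.027 FPKM in the ventral and dorsal cloaca. Of the 5 target genes 4 were above the minimum at E10.5 and 2 at E13.5. Of these, 3 counted as higher ventrally at E10.5 and 1 at E13.5, where 10.6% and 4.16% of all features did.

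Genes with the most similar pattern were sought for the 3 members of widest range in log2(FPKM + 1). Similarity was the Euclidean distance over the 4 values of log2(FPKM + 1) less their mean. The search covered 8188 features that reach 5 FPKM in any group and have a locus of at least 500 bases. Features that share a span or carry more than a single gene name were left out. With 4 values the distance is a description only. Nearest to Nrarp were Upk3a (distance 0.51), a uroplakin gene, at 0, 0.10, 0.47 and 6.81 FPKM from dorsal cloaca to urethra, Ier5 (0.53) and Bcl2 (0.54). Notch1 was nearest to Tmsb4x (0.15), an actin-binding thymosin gene, at 172, 504, 1241 and 1208 FPKM, followed by Osbpl5 (0.27) and Rapgefl1 (0.32). Jag2 was nearest to Atxn1 (0.16), Tdrd1 (0.17) and Ahr (0.20), the aryl hydrocarbon receptor gene, the last at 2.56, 4.93, 5.56 and 12.5 FPKM.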

How the data were processed

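Sub-nanogram amounts of RNA from 16 laser-captured samples were amplified and made into Illumina libraries, per the labels' protocols. The authors deposited FPKM in 2 tables, 1 per age, each with a column for either region. Per the submitters' processing notes, Cufflinks 2.2.1 and mm10 were used. How the 4 libraries of a region were combined, and which aligner and annotation were used, is not stated in the sources used here. The age of a table rests on its name. Low values multiplied by exon length showed no steps of whole reads (at most 25.5% within 0.1 of a whole number, where 20% would by chance), so that depth is unknown and no interval is given.

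Differences of log2(FPKM + 1), ventral minus dorsal, were computed with Python 3.11.15, numpy 2.4.6 and pandas 2.3.3 for all 23234 features. Features with at least 1 FPKM in either region were counted at a difference of 1 or more. Lists were matched by symbol, and 23099 features matched a RefSeq symbol or synonym. Locus starts were increased by 1, since this gives the RefSeq start for 10463 of 21081 features compared. The counting was tested on simulated data. Named pathway genes are those past the threshold with at least 5 FPKM, up to 4 a list, and Rbpj, Hes1, Lfng, Mib1 and Adam10. Up to 3 markers a list are named by level, with further defining markers added. Members and lists were chosen with earlier results of these data known. Differences between ages were added after the data were seen.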

Additional observations from a re-analysis of the deposited data

How the results depend on the processing

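No paired analysis was possible because the deposited tables hold 1 value per region and none per embryo, and for the same reason no replicate could be left out. Of 80 differences of single members under another pseudocount or scaling, 70 stayed on their side of the threshold. Another 4 lost it and 6 passed it, and none that was past it changed sign. No minimum was applied here, so genes under 1 FPKM in both regions are included. Among them is Dll3 at E10.5, listed at 0 in both regions, which could not move. A pseudocount of 5 FPKM took Notch1 and Jag1 at E10.5 to 0.76 and 0.79, Jag2 and Dll4 at E13.5 to 0.91 and -0.60, and left Nrarp past the threshold. A pseudocount of 0.1 FPKM took Jag1 and Notch4 at E13.5 past the threshold, to 1.08 and -1.50. The others that passed it were under 1 FPKM in both regions, such as Dll4 at E10.5 at -2.55.

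With a pseudocount of 5 FPKM the members higher ventrally numbered 0 at E10.5 and 1 at E13.5, and those higher in hindgut 0. That last count was 2 with a pseudocount of 0.1 FPKM, and 0 with a minimum of 5 FPKM or without shared spans, which leaves out Dll4. Among pathway genes at E10.5, those higher ventrally numbered 0 with a pseudocount of 5 FPKM and 2 with a minimum of 5 FPKM, and those higher dorsally 1 under each. At E13.5 those higher in urethra numbered 4 and 1 with a pseudocount of 0.1 and 5 FPKM and 1 without shared spans, and those higher in hindgut 1 with a pseudocount of 0.1 FPKM. The median over members at E10.5 was 0.57 and 0.25 with a pseudocount of 0.1 and 5 FPKM, 0.13 with no minimum and 0.63 with a minimum of 5 FPKM. At E13.5 that median became -0.30 without a minimum and 0.42 at a minimum of 5 FPKM. Between ages, the members higher in hindgut than in dorsal cloaca numbered 1 with a pseudocount of 5 FPKM or a minimum of 5 FPKM, and 3 after quantile normalization. Changes under a pseudocount or minimum follow from its construction, as low values are damped or left out, and for quantile normalization the cause was not tested. These comparisons between ages were added after the data were seen.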
